A study of Mus musculus with 28 samples.

Results

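Hepatocyte-like cells made by chemical treatment (MEF_ciHep, labelled ciHeps, 3 libraries) were compared with the mouse embryonic fibroblasts they were started from (MEF, 3 libraries), which together are 6 of the 28 RNA-seq libraries of the series. The members were taken from the sample titles alone, so no expression value decided which library entered. The series followed mouse fibroblasts through chemically induced endoderm progenitor cells (ciEPC) to ciHep cells. The other libraries used beside this comparison were neonatal dermal fibroblasts (MNF, 2 libraries), the ciHep cells made from them (MNF_ciHep, 2 libraries), primary hepatocytes (pHep, 2 libraries) and, for levels only, 10 libraries of ciEPC from MEF. These ciEPC libraries are titled as passages 1 to 22 of 2 series.

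The MEF came from E13.5 embryos and were sequenced at passage 2. MEF_ciHep were derived from MEF ciEPC at passages 3 to 10. Both carried an Oct4-GFP transgenic allele, on the CBA/CaJ X C57BL/6J background crossed to 129Sv/Jae females. MNF (passage 2), MNF_ciHep and pHep (from adult liver, passage 0) are labelled as Oct4-GFP on CBA/CaJ X C57BL/6J, so the MNF and pHep groups differ from the MEF groups in strain as well. The compounds used, and whether the libraries of a group came from separate cultures, are not given in the sources used here. The p-values therefore measure the spread between these libraries, which may be technical. In these bulk samples a smaller share of cells of one kind and less RNA per cell cannot be told apart.

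Fibroblasts are mesenchymal cells that secrete and crosslink a collagen matrix and, in culture, build contractile actin fibres. Hepatocytes are polarised epithelial cells whose identity rests on a mutually reinforcing network of nuclear factors (HNF4A, the FOXA and the C/EBP proteins among them). They secrete most plasma proteins, package lipoproteins, make bile and detoxify ammonia and drugs, and their fetal precursors are known for making alpha-fetoprotein. The comparison asks how far fibroblast transcripts were replaced by those of hepatocytes.

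Both labels were checked against markers. Col1a1, the collagen I alpha chain (chr11:94936224-94953042, GRCm38), stood at 13600, 17470 and 13810 CPM (its share of a library's counts, with libraries scaled by TMM factors) in MEF 1, 2 and 3 and at 1.32, 6.61 and 3.34 in MEF_ciHep 1, 2 and 3, the order used throughout. Hnf4a (chr2:163506808-163572910) stood at 0 in all MEF libraries and at 166, 167 and 118 CPM in MEF_ciHep. The hepatocyte markers Alb, Ttr, Apoa1, Apob, Serpina1a and Cps1 were likewise at or near 0 in MEF and at 39.2 CPM or more in every MEF_ciHep library. Asgr1, the asialoglycoprotein receptor subunit that marks mature hepatocytes, was close to absent from MEF_ciHep at 0.882, 0.307 and 0.334 CPM, against 8.99 and 5.79 in pHep, and Tat, a hormone-induced liver enzyme, reached only 0.882, 2.46 and 2.34 against 78.6 and 23.1 in pHep. Of the 3 hepatoblast markers Afp was higher in MEF_ciHep than in MEF, Dlk1 lower, and Gpc3 overlapped (486, 90.7 and 267 against 96.8, 322 and 121 CPM). Of the bile duct markers Krt7, Krt19 and Epcam were higher, Sox9 was lower and Spp1 overlapped. Genes of stomach and trophoblast, described further on, were high as well, so the label hepatocyte covers a mixed transcript content.

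Total expected counts were 3548977 to 5218402 in MEF and 2420756 to 6133147 in MEF_ciHep, with 16016 to 17582 and 16644 to 18838 genes detected. The difference between gene length and effective length implied reads of 74.5 bases in MEF and 50.5 bases in MEF_ciHep, so read length and cell state cannot be told apart in this comparison. Across the genes tested, profiles of log2 CPM, TMM-scaled and with a small prior count, correlated at 0.97 to 0.979 between MEF libraries. The values were 0.955 to 0.961 between MEF_ciHep libraries and 0.572 to 0.608 between the 9 pairs of one MEF and one MEF_ciHep library. MEF_ciHep and pHep libraries correlated at 0.728 to 0.765 over 6 pairs, and MEF and pHep at 0.642 to 0.669. These are descriptions across genes, which are not independent replicates.

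Of 14457 genes tested with edgeR's quasi-likelihood test, 3420 (23.7%) were higher and 2920 (20.2%) lower in MEF_ciHep, taking a difference of 2-fold or more whose p after Benjamini-Hochberg adjustment was under 0.05, and "called" below refers to both limits. Among these, 1717 rose and 1063 fell at least 8-fold. The 3 libraries of the groups did not overlap at 4829 genes that were higher (33.4%) and 4782 that were lower (33.1%). No counts at all were seen in MEF for 452 of the genes that rose, and none in MEF_ciHep for 200 of those that fell. Such a gene passed the filter on low counts only through other groups of the fit. It had to differ if the other compared group alone carried it past the filter. For it the fold is given as a lower bound against 3 counts over the group at 0, and where a group held 1 to 3 counts the ratio is given with its exact 95% counting interval, which covers counting error only. Among 565 members of the lists below that were called, 12 had overlapping libraries. For every gene named below as risen or fallen, apart from Hba-a2, all 3 libraries of one group lay above all 3 of the other. The rule that picked the 12 largest rises and the 12 largest falls required this.

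**Figure D1:**
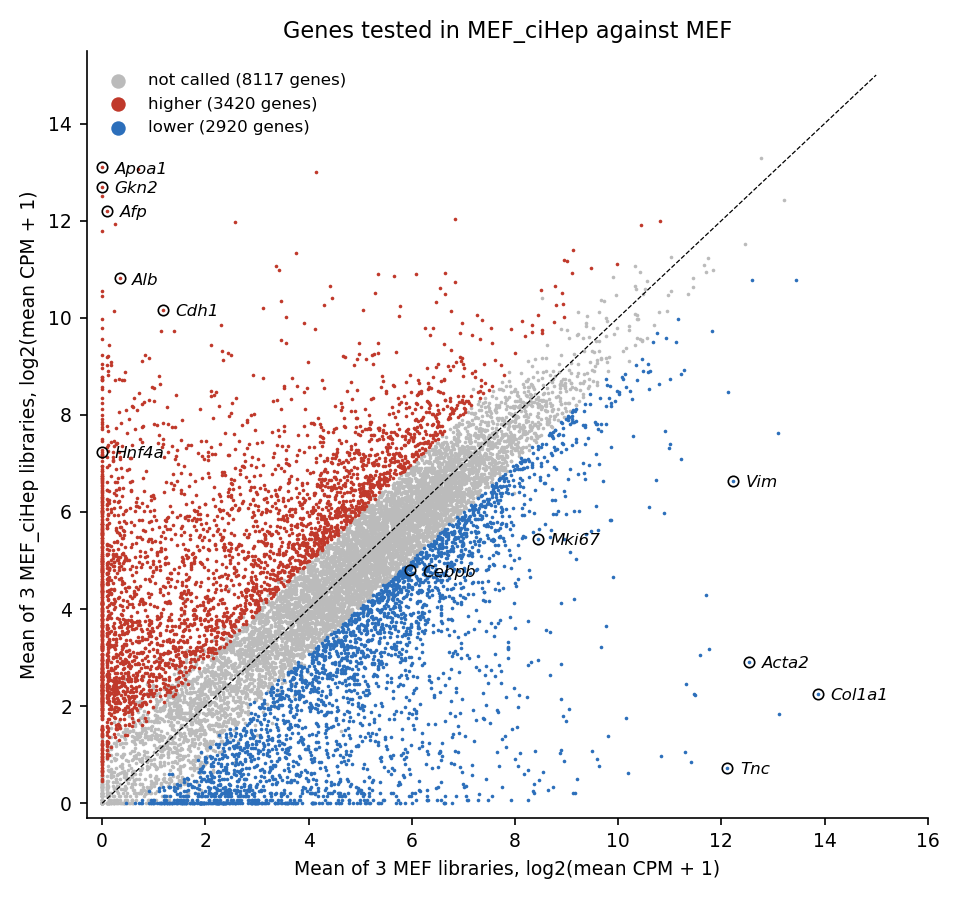
Each point is 1 of the 14457 genes tested, placed by its mean over 3 MEF libraries (horizontal) and 3 MEF_ciHep libraries (vertical), both as log2(mean CPM + 1), with 3420 higher and 2920 lower genes coloured. Collagen genes lie at the lower right and stomach, apolipoprotein and plasma protein genes at the upper left, against the MEF axis.

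The 12 genes with the largest fitted rises, among those averaging at least 32 CPM in the higher group, came from liver and from stomach and other mucosae. They were Apoa1, Afp, Fgb and Ugt2b34 of the liver, the gastric genes Gkn2, Gkn1, Tff1, Pgc and Cldn18, the mucin-like Dpcr1, and Dmbt1 and Zg16 of mucosal secretion. Cldn18, a tight junction protein of stomach and lung, went from 0 to 1031, 1046 and 591 CPM, at least 3648-fold higher. Pgc, a gastric protease precursor, went from 0 to 1566, 286 and 428 CPM. The 12 largest falls were the matrix genes Tnc, Col1a1, Col1a2, Col5a2, Aspn and Postn, the secreted proteins Fibin and Lrrc17, the protease Tll1, the factor Twist2, the surface protein Thy1 and the retinoic acid binder Crabp1. Postn, the matrix protein periostin, fell 2103-fold, from 898, 1083 and 1511 to 0, 0.307 and 1.34 CPM. Crabp1 fell from 458, 283 and 535 to 0.441, 0 and 0.334 CPM.

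The nuclear factors of the hepatocyte network rose nearly throughout. Of 22 transcription factors listed, 20 were tested, 16 rose and 1 fell, with a median log2 difference of 4.03. Over all genes tested that median was 0, and the medians given in brackets for later lists are on the same scale, with a second value where setting genes at 0 to the count floor moved it. Hnf4a rose at least 617-fold, from 0 to a level 3.39-fold below pHep, where it stood at 583 and 436 CPM (edgeR adjusted p = 0.0054). The pioneer factor Foxa2 went from 0 to 129, 81.6 and 81.9 CPM, above the 52.8 and 53 of pHep. Foxa3 went from 0 to 42.8, 29.7 and 22.1 CPM, against 35.2 and 38.6 in pHep. Every MEF_ciHep library held all 3 of these factors, and no MEF library held a single count of them.

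Cebpa, the C/EBP protein of differentiated liver, rose 5.2-fold, from 3.01, 6.82 and 5.26 to 25.1, 22.8 and 33.1 CPM (adjusted p = 0.00162). Onecut1 (HNF6), which acts in the hepatoblast, went from 0 to 13.7, 7.99 and 10.4 CPM, and the xenobiotic receptor Nr1i2 (PXR) from 0 to 18.1, 13.7 and 9.69 CPM. Nr1h4, the bile acid receptor FXR, was called but reached only 1.32, 1.08 and 0.668 CPM against 42.2 and 36.6 in pHep, and with limma its log2 difference of 0.91 missed the limit. Cebpb was the member that fell, from 65.2, 61.4 and 57.1 to 29.1, 18 and 33.4 CPM (log2 difference -1.21 ± 0.30 SE). Its groups did not overlap, although without MEF_ciHep 2 it missed the 2-fold limit at -0.93. Rxra, the shared partner of these receptors, stood at 86.8, 119.9 and 85.6 CPM in MEF_ciHep and 42.4, 61.4 and 51.1 in MEF, below the 2-fold limit.

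**Figure D2:**
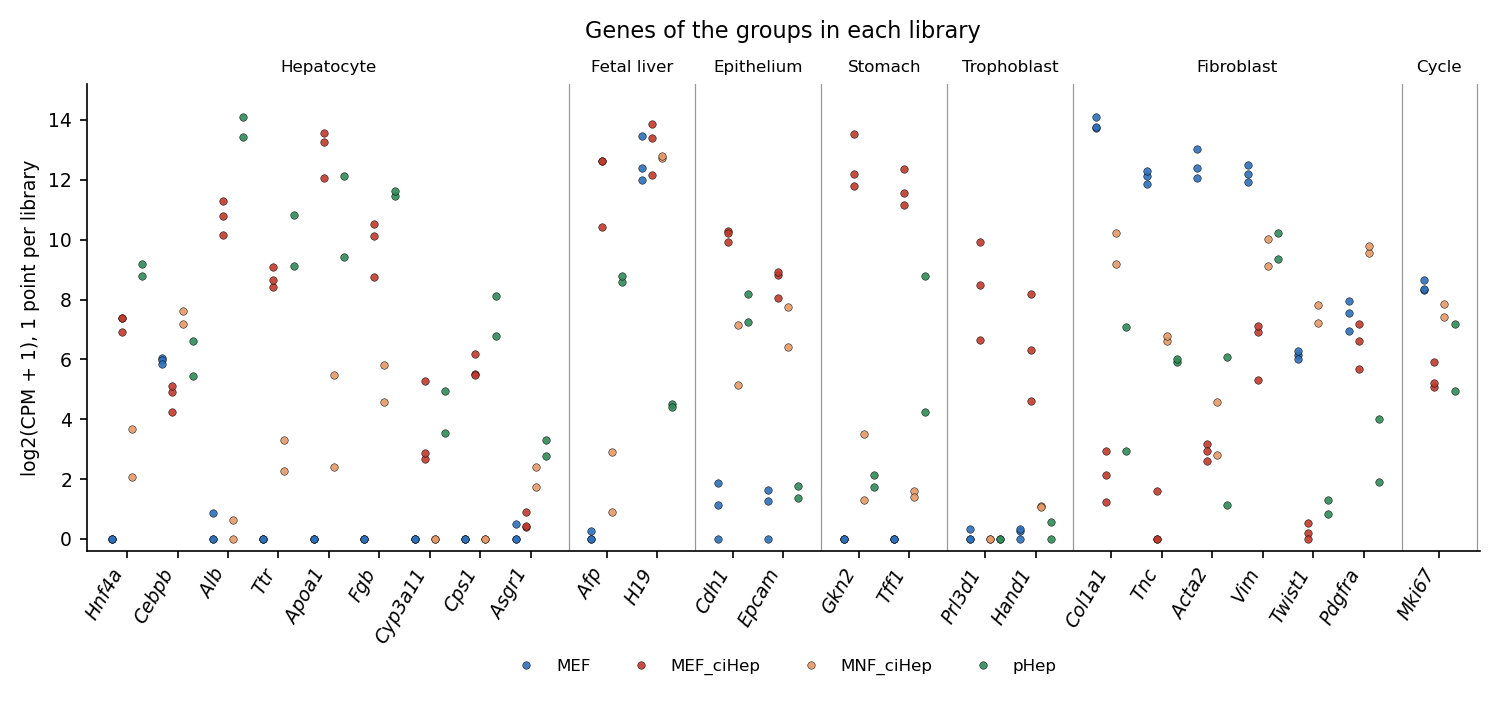
Values of single genes as log2(CPM + 1), 1 point per library, for MEF, MEF_ciHep, MNF_ciHep and pHep, ordered by gene group. Hnf4a, Alb, Ttr, Apoa1 and Fgb lie at or near 0 in all MEF libraries and high in all MEF_ciHep libraries, while Asgr1 stays low in MEF_ciHep and Col1a1 shows the reverse pattern.

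Genes for secreted plasma proteins rose nearly throughout. Of 31 genes for carriers and antiproteases, 30 were tested, 27 rose and none fell; the median log2 difference was 7.37, or 6.83 with the 11 genes at 0 in a group set to their count floor. The summed level of the list was 21.9 to 44.6 TPM (a level scaled for gene length) in MEF and 17490, 8448 and 17630 TPM in MEF_ciHep. The 3 members Serpina1e, Serpina3k and Orm2 did not pass the test.

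The promoters of Alb, a carrier that rose, and Acta2, a contractile gene that fell, were set to be shown, since plasma protein and contractile genes moved in opposite directions. Hpx, a plasma haem scavenger, and Rbp4, a vitamin carrier, both rose. They were picked from the named liver and contractile genes for their high number of motif matches. Matches in the Hpx and Rbp4 promoters thus follow from that choice and say nothing of other genes that rose. The promoters shown are the 250 bases before the start site in RefSeq (GRCm38.p6), 5′ to 3′ on the gene's strand, for Alb at chr5:90460620-90460869 (plus), Hpx at chr7:105600117-105600366 (minus), Rbp4 at chr19:38124812-38125061 (minus) and Acta2 at chr19:34255374-34255623 (minus). Capitals mark matches on either strand to 4 motifs: CAAAGTCCA (HNF4A), TTGCNNAA (C/EBP), TATAAA (the TATA box) and the CArG box bound by serum response factor (CC, then 6 bases that are each A or T, then GG).
Alb: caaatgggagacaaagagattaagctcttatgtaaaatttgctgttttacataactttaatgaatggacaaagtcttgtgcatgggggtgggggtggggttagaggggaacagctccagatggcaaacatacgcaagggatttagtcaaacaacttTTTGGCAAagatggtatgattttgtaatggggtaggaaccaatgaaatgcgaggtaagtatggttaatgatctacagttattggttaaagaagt
Hpx: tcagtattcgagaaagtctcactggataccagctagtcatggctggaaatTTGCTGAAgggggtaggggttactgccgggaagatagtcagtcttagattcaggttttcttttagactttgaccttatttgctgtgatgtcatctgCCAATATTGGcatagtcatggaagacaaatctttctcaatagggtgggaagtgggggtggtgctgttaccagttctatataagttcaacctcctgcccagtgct
Rbp4: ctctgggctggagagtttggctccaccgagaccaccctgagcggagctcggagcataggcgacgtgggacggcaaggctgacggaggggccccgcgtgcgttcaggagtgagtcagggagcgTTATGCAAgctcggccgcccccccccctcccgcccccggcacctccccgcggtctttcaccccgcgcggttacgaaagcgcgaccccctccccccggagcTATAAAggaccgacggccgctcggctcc
Acta2: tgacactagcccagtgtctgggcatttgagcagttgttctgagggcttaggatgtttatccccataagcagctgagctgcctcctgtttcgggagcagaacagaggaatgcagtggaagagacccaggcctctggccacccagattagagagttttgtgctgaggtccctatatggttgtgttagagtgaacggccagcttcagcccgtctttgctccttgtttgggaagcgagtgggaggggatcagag

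In these windows Alb held a C/EBP match 94 to 87 bases before the start site. Hpx held a C/EBP match at 200 to 193 and a CArG box at 104 to 95, Rbp4 a C/EBP match at 128 to 121 and a TATA box at 28 to 23, and Acta2 no exact match to any of the 4, which says nothing of the factors themselves. Near matches to the CArG box, such as ccctatatgg and ccttgtttgg in Acta2, were not counted. Of 32851 promoters in the table, 9.56% held TTGCNNAA, 12.4% TATAAA, 0.384% CAAAGTCCA and 1.47% a CArG box. For the carrier list, 23 members had a promoter in the table, and TTGCNNAA stood in 11 of them and CAAAGTCCA in 0. Counted by promoter, TTGCNNAA stood in 42.3% of the 26 of this list. In the stomach, intestine and lung list, described further on, it stood in 29.4%. For the contractile list 17 had one, and a CArG box stood in 3 (Cnn2, Myl9 and Srf). Over the genes that rose, 9.89% of promoters held TTGCNNAA, against 6.16% for the genes that fell and 7.56% for tested genes not called. In the same order the shares were 1.54%, 1.67% and 0.955% for the CArG box. They were 0.491%, 0.260% and 0.348% for CAAAGTCCA and 8.78%, 7.72% and 5.92% for TATAAA. These matches describe letters in a short window, and no binding was measured.

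Alb (chr5:90460897-90476602), the main carrier protein of plasma, stood at 1130, 1756 and 2500 CPM in MEF_ciHep and 0, 0.802 and 0 in MEF. Its fitted log2 difference was 12.31 ± 0.78 (SE, adjusted p = 9.01e-07). Even so, every MEF_ciHep library lay below both pHep libraries (17750 and 11010 CPM), by 8.01-fold in the fit (adjusted p = 0.00112). Trf, the iron carrier transferrin, stood at 12400, 2742 and 10490 CPM against 0.301, 0.802 and 0.751 in MEF and 15290 and 18880 in pHep, a pHep difference that did not pass the test (adjusted p = 0.206). MEF_ciHep 2 was the lowest library for Trf.

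Ttr, the thyroid hormone carrier, went from 0 to 543, 337 and 400.4 CPM, against 1819 and 560.2 in pHep. Hp, which binds free haemoglobin, stood at 436, 633 and 486 CPM against 0, 0.401 and 0 in MEF, a ratio of 3432-fold (counting interval 949.8 to 28350). Hpx, the haem scavenger whose promoter is shown above, rose 446-fold, from 0.301, 0.401 and 0.501 to 241, 120.2 and 229 CPM. Rbp4, the retinol carrier, rose 196-fold, from 1.8, 2.01 and 1.25 to 324, 301 and 397 CPM, against 1269 and 599 in pHep. Serpina1a, an alpha-1 antitrypsin, went from 0 to 39.2, 40.6 and 58.2 CPM, far below the 651 and 198 of pHep. Reads of the nearly identical Serpina1 copies may have been split between them, so single members of that family are uncertain.

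Fibrinogen transcripts rose together. Of 18 coagulation genes, 17 were tested, 13 rose and none fell (median 5.37, 4.18 at the floor). The chains of the clot protein were at 0 in every MEF library. In MEF_ciHep Fga stood at 565, 204 and 555 CPM. Fgb stood at 1482, 431 and 1125 CPM and Fgg at 291, 126 and 306 CPM. F2, prothrombin, went from 0 to 395, 103 and 271 CPM, against 327 and 403 in pHep. In each of these 4 genes MEF_ciHep 2 was the lowest library. Pros1, the protein S anticoagulant, stood at 78.5, 60.9 and 106 CPM in MEF_ciHep and 73.7, 93.7 and 97.1 in MEF and did not pass the test.

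Complement was divided. Of 19 genes, 16 were tested, 8 rose and 2 fell (median 2.83, 2.40 at the floor). C3, the central component, rose 348-fold, from 0.601, 1.4 and 1.0 to 501, 281 and 344 CPM. Cfb, of the alternative pathway, rose 283-fold, from 0.601, 0.602 and 1.0 to 209, 245 and 195 CPM. The classical pathway protease C1ra fell from 4.21, 8.83 and 10.5 to 3.09, 1.84 and 2.0 CPM. Masp1, a lectin pathway protease, fell from 33.1, 29.9 and 28 to 19.4, 9.53 and 9.69 CPM, a call lost when all 9 groups were fitted (adjusted p = 0.0845). Mbl2, the lectin that activates this pathway, was nearly absent from MEF_ciHep at 0, 0.154 and 0 CPM, where pHep held 389 and 319.6.

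Of 19 genes for apolipoproteins and lipoprotein assembly, all tested, 12 rose and none fell, or 1 without MEF 1, MEF 3 or MEF_ciHep 3 (median 4.67, 4.53 at the floor), while 2 were higher and 12 lower than in pHep. Apoa1 (chr9:46228580-46230466), the protein of high-density lipoprotein, went from 0 to 12240, 4257 and 9800 CPM, at least 35950-fold higher, and stood at 4483 and 689 in pHep (difference not called, adjusted p = 0.209). In TPM it had a mean of 16840 ± 7112 (SD, n = 3). Apob, the backbone of very-low-density lipoprotein, rose 390.5-fold to 444, 184 and 266 CPM and stayed below the 2332 and 2582 of pHep. Mttp, which loads lipid onto Apob, rose 22.8-fold to 185, 62 and 109 CPM. The list summed to 248 to 326 TPM in MEF, 25850, 10300 and 22150 in MEF_ciHep and 12420 and 21960 in pHep. The lipoprotein receptor Scarb1 did not pass the test.

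Drug metabolism genes rose unevenly. Of 31 cytochrome P450 genes only 20 had enough counts to be tested, and 15 of them rose and none fell (median 7.29, 4.45 at the floor). Cyp3a13 stood at 139.7, 164 and 147 CPM in MEF_ciHep, 0, 0.201 and 0.25 in MEF and 86.8 and 17.8 in pHep, and its level exceeded pHep by 2.85-fold (adjusted p = 0.0274). Cyp3a11, the main mouse counterpart of the human drug-metabolising CYP3A4, went from 0 to 5.29, 37.5 and 6.35 CPM, highest in MEF_ciHep 2. Cyp2c55 was also highest in MEF_ciHep 2, at 14.6, 72.7 and 14.4 CPM over the libraries, with 0 in pHep. Cyp2d10 went from 0 to 47.6, 41.2 and 60.8 CPM, against 57.1 and 61.2 in pHep. Cyp1a2 and Cyp2e1, enzymes of mature pericentral hepatocytes, stayed at 1.23 CPM or less in every MEF_ciHep library and were not tested. In pHep 1 and 2 Cyp1a2 stood at 7.035 and 1.93 CPM and Cyp2e1 at 21.5 and 1.93, so the reference was low for them as well.

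Phase II conjugation genes rose as well: 18 of 23 members tested rose and none fell, of 27 listed (median 5.34, 4.31 at the floor). The glutathione transferase Gsta1 stood at 1051, 619.9 and 407 CPM against 0.301, 0 and 0 in MEF and 78.2 and 80.5 in pHep, where the MEF_ciHep level was 8.72-fold higher (adjusted p = 2.40e-04). Gsta4 rose 65.8-fold, from 9.32, 10.0 and 13.3 to 732, 928 and 493 CPM. Gstm1 rose 19.8-fold, from 16.5, 20.5 and 19.3 to 448, 416 and 257. The glucuronosyltransferase Ugt2b34 went from 0 to 633, 594 and 574 CPM, 4.8-fold above pHep. Summed over the list, MEF_ciHep held 5976, 6259 and 3751 TPM, within the range of the pHep libraries (3425 and 9087).

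Most bile acid genes tested rose. Of 25 genes listed, 17 were tested, 12 rose and 1 fell (median 5.03, 3.16 at the floor). Cyp27a1, which opens the alternative route of bile acid synthesis, rose 79.1-fold, from 0.902, 0.401 and 1.5 to 124, 43.7 and 56.8 CPM. The export pump Abcc3, which faces the blood, rose 98.8-fold to 279.9, 511 and 267 CPM. Abcc2, which faces the bile canaliculus, went from 0 to 7.05, 4.92 and 10.0 CPM and stood at 307 and 311 in pHep. Cyp7b1, which acts later in the alternative route, was the member that fell, from 2.4, 4.21 and 4.76 CPM to 0. Cyp7a1, the rate-limiting enzyme of the classical route, Cyp8b1 and the bile acid importer Slc10a1 had too few counts to be tested. The pHep libraries were low for them too, with Cyp7a1 and Cyp8b1 at 0 and Slc10a1 at 1.56 and 1.93 CPM. The phospholipid exporter Abcb4 and Amacr, of side chain oxidation, were tested and not called.

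In nitrogen metabolism, 5 of 11 urea cycle and ammonia genes tested rose and none fell (median 2.05, 0.70 at the floor). The count that rose was 3 without MEF 2, without MEF 3 or without MEF_ciHep 3, and the last of these gave 1 fall. Cps1, which fixes ammonia in the first step of the cycle, went from 0 to 44.1, 43.5 and 70.9 CPM, 3.67-fold below the 109 and 279.6 of pHep. Glul, the glutamine synthetase of pericentral hepatocytes, rose 16-fold, from 33.7, 49.5 and 30.0 to 744, 556 and 524 CPM, and exceeded both pHep libraries (84.4 and 140.3). Arg1, the last enzyme of the cycle, was called at 8.82, 3.69 and 8.36 against 1.8, 0.602 and 1.0 CPM, but lost its call without MEF 2, MEF 3, MEF_ciHep 1 or MEF_ciHep 3 (edgeR adjusted p 0.0658 to 0.0966). Otc, the second enzyme, was not tested, and Ass1 and Asl did not pass.

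Amino acid catabolism rose in part, with 7 of 18 members tested higher and 1 lower (median 3.11, 2.25 at the floor). Gldc, of the glycine cleavage system, rose 69.3-fold, from 0.301, 2.41 and 0.25 to 74.5, 92.5 and 70.2 CPM, against 283 and 358 in pHep. Tdo2, which breaks down tryptophan in mature liver, stood at 0, 0.154 and 0.668 CPM against 12.9 and 64.6 in pHep. Cth, of transsulfuration, was the member that fell, from 32.2, 14.4 and 27.3 to 6.17, 4.92 and 5.68 CPM. For sugar handling, 9 of 13 members tested rose and none fell (median 4.49, 2.62 at the floor). Pcx, the first enzyme of gluconeogenesis, rose 6.14-fold to 100.5, 155 and 87.9 CPM. Ppargc1a, a coactivator of the fasting response, rose from 0.301, 0.401 and 0.751 to 12.3, 11.4 and 11.4 CPM. Pck1, which commits carbon to glucose, stood at 0, 0.769 and 2.0 CPM and did not pass the test.

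Fatty acid oxidation genes rose in part. Of 21 genes tested, 11 rose and none fell (median 1.11). Fabp1, the fatty acid binding protein of the liver, went from 0 to 17.2, 22.4 and 19.7 CPM. In pHep it stood at 1.17 and 2.89, so the reference was low for it as well. Acadm, of mitochondrial oxidation, rose 4.44-fold, from 36.7, 50.5 and 44.8 to 248, 132 and 210.2 CPM. The summed level was 2082, 2315 and 1759 TPM in MEF_ciHep, against 808 to 928 in MEF and 1415 and 2729 in pHep. Of 23 cholesterol and fatty acid synthesis genes, 2 rose (1 without MEF 1, 3 without MEF 3) and 1 fell (2 without MEF 1 or MEF_ciHep 1), with a median -0.30. Me1, which supplies NADPH, rose 3.26-fold to 424, 535 and 434 CPM. Acaca, the first step of fatty acid synthesis, fell from 139, 199 and 183 to 48.5, 49.6 and 55.8 CPM.

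Afp was the most abundant fetal liver gene that rose. Afp (chr5:90490737-90508907) stood at 6393, 1388 and 6408 CPM in MEF_ciHep and 0, 0.201 and 0 in MEF, a ratio of 44670-fold (counting interval 8016 to 1764000). It exceeded both pHep libraries (379 and 436), by 11.6-fold in the fit (adjusted p = 0.00377), and MEF_ciHep 2 was again the lowest of its 3 libraries. The rest of the list was divided, since 15 of 17 genes were tested, 6 rose and 4 fell (median 0.53). Spink1, a trypsin inhibitor of fetal liver, went from 0 to 239, 63.5 and 115 CPM. The imprinted H19 was already high in MEF (4074, 11420 and 5386) and stood at 10740, 4574 and 14920 CPM in MEF_ciHep, with overlapping groups. Its neighbour Igf2 fell from 4380, 8901 and 5172 to 2088, 891 and 2306 CPM. Dlk1, a surface marker of hepatoblasts, fell from 139, 544 and 73.1 to 34, 7.38 and 7.69 CPM. Hmga2, a chromatin protein of fetal cells, fell 76.2-fold, from 1058, 845 and 713 to 11.5, 10.6 and 12.4 CPM.

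Hepatocyte surface genes were divided. Of 21 tested, 11 rose and 4 fell (median 2.04, 1.74 at the floor), and 14 were lower than in pHep. Gjb1, the gap junction protein of hepatocytes, went from 0 to 43.2, 51.3 and 34.8 CPM, above the 8.6 and 20.2 of pHep. Hamp, the iron hormone hepcidin, went from 0 to 68.8, 8.15 and 15 CPM, highest in MEF_ciHep 1. Igfbp1, which binds insulin-like growth factors, went from 0 to 65.7, 38.4 and 119 CPM, against 2807 and 762 in pHep. Cdh2, the cadherin shared by fibroblasts and hepatocytes, fell from 210.5, 165 and 182 to 10.1, 20.9 and 5.35 CPM. Igf1, which mature hepatocytes release, fell from 10.2, 46.1 and 19.5 to 0, 2.77 and 0.334 CPM, with 184 and 73.3 in pHep. Asgr1 and Asgr2 did not pass the test.

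Bile duct genes rose beside those of hepatocytes: 9 of 15 members tested were higher and 3 lower (median 5.87, 5.45 at the floor), and 8 were higher than in pHep. Krt7 rose 73-fold, from 7.22, 12.8 and 10.0 to 692, 581 and 956 CPM, above the 61 and 45.3 of pHep. Krt19 rose 65-fold, from 32.5, 18.9 and 11.5 to 1245, 1081 and 1734 CPM, above the 343 and 127 of pHep. Sox9, a regulator of duct cells, was among the 3 that fell, from 17.4, 33.3 and 16 to 13.7, 5.53 and 6.35 CPM. The Notch ligand Jag1 fell from 146, 99.7 and 74.8 to 1.76, 12 and 3.68 CPM. Hes1, a Notch target, was the other, at a log2 difference of -1.01 that missed the 2-fold limit in several alternatives (-0.96 with RLE scaling). Spp1, osteopontin, stood at 57.3, 357 and 264 CPM in MEF_ciHep and 357, 184 and 642 in MEF, with overlapping groups, and was not called.

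Epithelial genes rose nearly throughout. Of 41 genes for epithelial junctions and simple keratins, all tested, 38 rose and 2 fell, or 1 without MEF_ciHep 2 (median 8.18, 7.72 at the floor). Cdh1 (chr8:106603351-106670246), the adherens junction cadherin, rose 828-fold, from 1.2, 2.61 and 0 to 1258, 979 and 1207 CPM (log2 9.69 ± 0.79 SE, adjusted p = 2.21e-06). Krt8 and Krt18 are the keratins that form the filaments of hepatocytes. Krt8 rose 796-fold to 3921, 3552 and 4622 CPM and Krt18 rose 202-fold to 2553, 1689 and 3464 CPM. Epcam, an adhesion protein of progenitor and duct cells that adult hepatocytes lack, rose 337-fold to 447, 262 and 482 CPM, against 1.56 and 2.41 in pHep. Desmoplakin (Dsp) rose 231-fold, to 932, 911 and 943 CPM. Ocln, of tight junctions, stood at 315, 254 and 233 CPM against 0.301, 0.201 and 0.25 in MEF. The members that fell were Cdh3, the placental cadherin, from 100.4, 165 and 114 to 18.5, 31.8 and 68.2 CPM, and Cldn1, of tight junctions. Cldn1 stood at 0.441, 0.615 and 1.34 CPM against 2.4, 3.01 and 3.75 in MEF and lost its call without MEF_ciHep 2 (adjusted p = 0.0563).

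Endoderm regulators rose. Of 17 listed, 11 were tested, 10 rose and none fell (median 5.26), and 5 were higher than in pHep. The members not tested showed no such rise. Gsc stood at 2.1, 2.61 and 1.5 CPM in MEF and 0 in MEF_ciHep, and Cer1 and Mixl1 were at 0 in both groups. Cxcr4, Sox18 and Lhx1 stayed at 1.54 CPM or less in MEF_ciHep. Sox17, which specifies endoderm, went from 0 to 129, 126 and 53.8 CPM, with 1.56 and 0.964 in pHep. Gata4 rose 38.4-fold, from 4.51, 7.82 and 2.25 to 269.8, 187 and 123 CPM. Gata6 rose 4.96-fold, from 18.9, 36.3 and 11.8 to 120.4, 123 and 92.9 CPM. All 8 of these 10 genes that averaged at least 10 CPM in MEF_ciHep had a median of at least 10 CPM in the 10 MEF ciEPC libraries too, against 64.2% of the 2595 genes that rose and reached that level. Of the 23 plasma carrier genes at that level, only 1 did so, and 19 had a ciEPC median under 1 CPM. This is a comparison of levels, and ciEPC were not tested here. The ciEPC libraries are passages of the same series, not independent samples, and their CPM were scaled over all 28 libraries rather than the 12 fitted.

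Genes of extraembryonic endoderm, the yolk sac lineage that also makes Afp and apolipoproteins, rose in 16 of 22 cases and fell in 1, or 2 without MEF_ciHep 1 (median 1.97), and 15 were higher than in pHep. Lama1, a basement membrane laminin chain, rose 204-fold, from 7.82, 12.4 and 9.01 to 2948, 1381 and 1717 CPM, against 2.35 and 2.41 in pHep. Cubn, an endocytic receptor of yolk sac, rose to 769, 550.2 and 483 CPM, and the X-linked Rhox5 rose to 286, 239 and 332 CPM. Col4a1 stood at 5727, 3147 and 3366 CPM against 1945, 1736 and 1697, a call lost without MEF 1, MEF 2, MEF 3 or MEF_ciHep 1 (adjusted p 0.0581 to 0.106). Sparc (3315, 1188 and 1401 CPM) and Pdgfra (144, 50.6 and 96.6 CPM), which both lineages share with fibroblasts, overlapped their MEF levels and did not pass the test. The summed list stood at 13810, 7965 and 9251 TPM in MEF_ciHep and 5244 to 6050 in MEF. Whether such cells were part of the cultures was not tested.

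The core pluripotency genes stayed low. Pou5f1 stood at 0.441, 1.08 and 0.334 CPM in MEF_ciHep and 7.82, 1.2 and 1.25 in MEF, and Nanog and Sox2 were too low to be tested. Other genes of that list are shared with early endoderm and epithelium, and 9 of 13 tested rose and 1 fell (median 3.38). Klf4 rose 4.38-fold, to 351, 288 and 249 CPM, Tfcp2l1 rose to 79.8, 113 and 101 CPM, and Lin28a, an RNA-binding protein of embryonic cells, rose to 22.5, 13.2 and 12 CPM.

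Fibroblast genes fell nearly throughout. Of 47 collagen and matrix genes, 45 fell and none rose (median -8.76, -8.59 at the floor). Their summed level was 32390 to 39300 TPM in MEF and 1287, 1128 and 1221 TPM in MEF_ciHep, below the 4382 and 7663 of pHep. Col1a1 fell 3548-fold (log2 -11.79 ± 1.16 SE, adjusted p = 8.32e-06). Col1a2, its partner chain, fell from 7826, 9683 and 8973 to 2.2, 2.92 and 2.67 CPM. Tnc (chr4:63959785-64047015), the matrix protein tenascin C, fell from 4505, 3753 and 5048 to 0, 2.0 and 0 CPM. Lox, which crosslinks collagen, fell from 2743, 1971 and 2826 to 0.441, 2.15 and 0.668 CPM. Fibronectin (Fn1), which hepatocytes also secrete, fell only 6.4-fold, from 11330, 9558 and 12700 to 2088, 1236 and 1929 CPM, against 11810 and 19410 in pHep. Fbln1 and Timp3 did not pass the test.

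Contractile genes followed, with 21 of 24 lower and 1 higher (median -3.15). Acta2 (chr19:34241090-34255590), smooth muscle actin, fell 932-fold, from 8269, 5400 and 4242 to 7.93, 5.07 and 6.68 CPM. Tagln (transgelin) fell from 3597, 2091 and 1915 to 4.85, 3.54 and 5.01 CPM. Cav2, a membrane coat protein, was the member that rose, from 29.8, 13.6 and 21.3 to 70.5, 154 and 87.9 CPM. Among 23 mesenchymal surface genes and growth factor receptors, 19 fell and 1 rose, or 2 without MEF 3, MEF_ciHep 2 or MEF_ciHep 3 (median -4.96). Thy1, a classical fibroblast surface marker, fell from 654, 365 and 646 to 0, 0.154 and 0.334 CPM. Pdgfrb, a receptor for platelet-derived growth factor, fell 446-fold, from 419, 469.6 and 522 to 1.76, 1.08 and 0.334 CPM. Ly6a (Sca-1) rose instead, from at most 22.8 to 203, 282 and 155 CPM. The intermediate filament gene Vim fell 48.7-fold, from 5807, 4706 and 3907 to 119.9, 137 and 38.4 CPM.

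Mesenchymal transcription factors fell in 32 of 34 cases tested and rose in 1 (median -5.65, -5.25 at the floor). Twist2 fell from 107, 87.9 and 100.1 CPM to 0, at least 386-fold lower. Its relative Twist1 fell from 70.3, 76.6 and 64.1 to 0.441, 0.154 and 0 CPM. Prrx1, a limb mesenchyme factor, fell 219.6-fold, to 3.53, 1.23 and 2.67 CPM. Zeb1, which represses Cdh1, fell 76-fold, to 2.2, 0.922 and 1.0 CPM. Runx1 was not called, and its sign differed between alternatives. All 32 Hox genes tested, of 39 listed, fell (median -5.59, -4.91 at the floor), and 27 to 31 did when a library was left out. Hoxb9 stood at 0.882, 1.08 and 0.668 CPM in MEF_ciHep against 61.6, 52.2 and 57.3 in MEF. The whole Hox list summed to 5.73, 23.5 and 11 TPM in MEF_ciHep, 437 to 544 TPM in MEF and 1.93 and 9.14 TPM in pHep.

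Cell division genes were lower as well. Of 40 DNA replication and mitosis genes, 36 fell and none rose (median -2.41). Mki67, the proliferation antigen, fell 8.2-fold, from 320.5, 403 and 325 to 32.6, 36.1 and 59.2 CPM. Top2a, which untangles replicated DNA, fell 7.19-fold, to 37.5, 48 and 72.9 CPM. Pcna and Gins2 did not pass the test. Mki67 stood at 143 and 29.4 CPM in pHep, so the MEF_ciHep libraries lay between the pHep libraries. The p53 target Cdkn1a stood at 298, 374 and 288 CPM against 319, 255 and 246 in MEF and was not called. Cdkn1c, an imprinted brake on the cycle, rose 4.67-fold, to 428, 215 and 469.9 CPM. Cdkn2a, of the Ink4 locus, rose 2.98-fold, to 37, 63.8 and 38.4 CPM, and Trp53 itself fell 3.15-fold, to 36.6, 72.4 and 47.8 CPM. Over the 19 genes of the p53 and Ink4 list, 4 rose and 3 fell, or 5 without MEF_ciHep 2 (median -0.26). These shares, 21.1% and 15.8%, are near the 23.7% and 20.2% of all genes.

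TGF-beta and YAP target genes fell in 16 of 22 cases and rose in 2 (median -2.81). Tgfb3, a TGF-beta ligand, fell 88.4-fold, from 332, 281 and 290.4 to 3.97, 2.46 and 4.34 CPM. Ltbp2, a latent TGF-beta binding protein of the matrix, fell from 323, 227 and 172 to 0, 0.154 and 0 CPM. Id1 and Id2, which answer to BMP, rose, Id2 to 229.7, 241 and 264 CPM from 21.6, 55.2 and 10.5 in MEF. The metallothionein Mt1 rose 37.8-fold, from 34.6, 39.9 and 73.8 to 2236, 1561 and 1813 CPM, within an acute phase and chemokine list in which 12 of 22 rose and 6 fell (median 3.79, 3.19 at the floor). Cxcl12, a stromal chemokine, fell 534-fold, from 259.5, 438 and 423 to 0.441, 0.922 and 0.334 CPM. For the unfolded protein and oxidative stress list, 5 of 19 rose and none fell, or 1 without MEF 2 (median 0.55), a share of 26.3% that is near the 23.7% of all genes. One of the 5, Gclc, the limiting enzyme of glutathione synthesis, rose 9.21-fold to 452, 386 and 304 CPM, while the chaperone Hspa5 and Atf4 did not pass. Of 16 glycolysis genes, 6 rose (3 without MEF_ciHep 3) and 1 fell (0 without MEF 1, MEF_ciHep 1 or MEF_ciHep 2), with a median 0.10. The glucose transporter Slc2a1 rose 7.58-fold, from 143, 113 and 118 to 687, 625 and 1522 CPM.

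**Figure D3:**
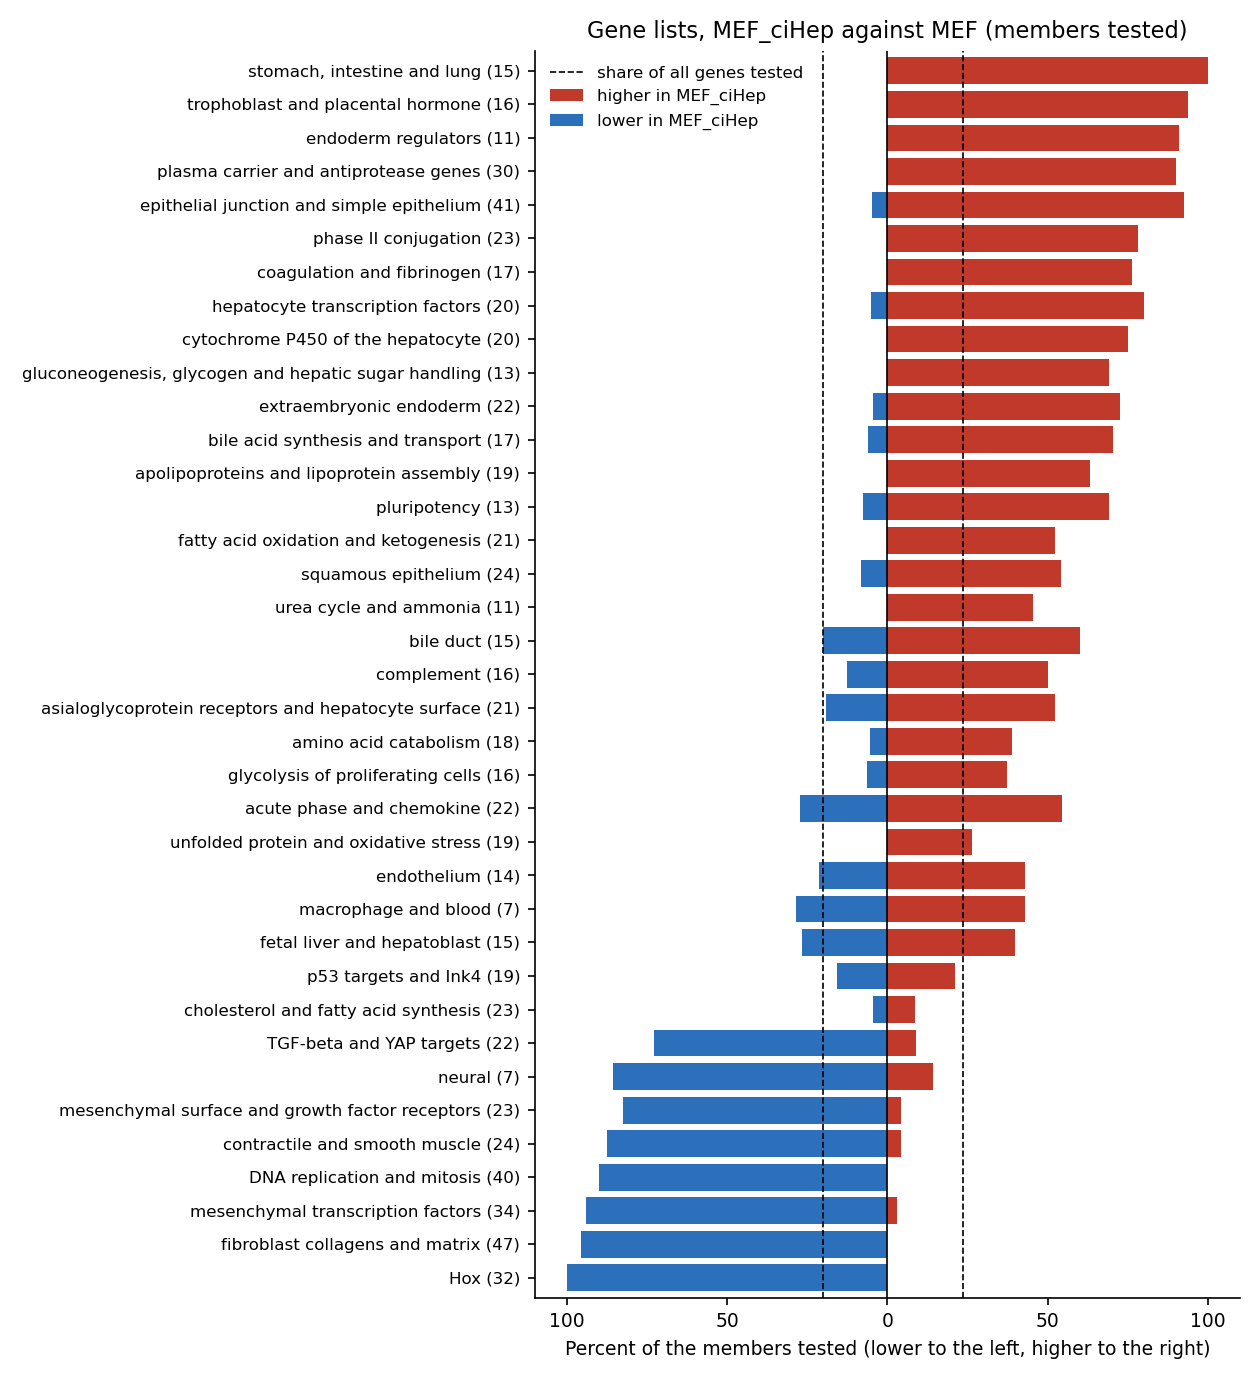
Bars give, for each gene list, the percent of its tested members higher in MEF_ciHep (right) and lower (left), with the shares of all genes tested, 23.7% and 20.2%, as dashed lines. Plasma carrier and epithelial lists lie far to the right, and matrix, mesenchymal factor, Hox and replication lists far to the left, while synthesis of cholesterol and fatty acids lies inside both lines.

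Transcripts of the stomach were among the most abundant in MEF_ciHep. Of 25 listed genes of stomach, intestine and lung, 15 were tested and all 15 rose (median 11.44, 10.07 at the floor). Of these, 10 rose from 0 in MEF and 14 were higher than in pHep. A rise was fixed in advance for any of the 10 that MEF_ciHep alone carried past the filter on low counts. Gkn2 (chr6:87373357-87379497) and Gkn1, gastrokines of the gastric surface, were at 0 in MEF. Gkn2 stood at 11750, 3562 and 4639 CPM and Gkn1 at 10780, 2565 and 4017 CPM in MEF_ciHep, both highest in MEF_ciHep 1. Tff1 and Tff3, trefoil peptides of gut mucus, were at 0 in MEF as well. Tff1 stood at 5240, 3052 and 2266 CPM and Tff3 at 497, 399 and 417 CPM in MEF_ciHep. Muc5ac, a gastric mucin, went from 0 to 451, 353 and 454 CPM. Gkn2 reached a mean of 16940 ± 10410 TPM (SD, n = 3) and Tff1 15650 ± 6119 TPM. The gene of highest TPM differed between the libraries: it was Gkn2 in MEF_ciHep 1, Sprr2a2 in MEF_ciHep 2 and Apoa1 in MEF_ciHep 3. Sprr2a2, a small proline-rich gene, had a mean of 11970 ± 5545 TPM, although its reads may be split with its overlapping copy Sprr2a1. The stomach, intestine and lung list summed to 73470, 32960 and 32080 TPM in MEF_ciHep, 4.95 to 6.77 in MEF and 160.1 and 2002 in pHep. Members not tested included genes of all these organs. The lung genes Nkx2-1, Sftpc and Sftpb were at 0 in all MEF_ciHep libraries. The stomach and intestine genes Gkn3, Muc6, Cdx1 and Muc2 stayed at 1.67 CPM or less in each of them. Agr2, also not tested, stood at 3.09, 7.53 and 2.34 CPM against 0 in MEF. The part of gut-type cells in the rises described above was not tested.

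Genes of trophoblast and placental hormones rose in 15 of 16 cases tested, of 19 listed, and none fell (median 7.23, 6.57 at the floor). Prl3d1 (chr13:27094190-27100258), a placental lactogen, stood at 100.1, 361 and 971 CPM in MEF_ciHep, 0, 0 and 0.25 in MEF and 0 in pHep; its near-identical copies make the single member uncertain. Hand1, a factor of trophoblast giant cells, stood at 23.4, 78.5 and 291 CPM and Tfap2c at 32.6, 66 and 220.3 CPM, and in all 3 of these genes MEF_ciHep 3 was the highest library and MEF_ciHep 1 the lowest. The list summed to 2116, 3118 and 5890 TPM against 47.5 to 70.5 in MEF and 73.2 and 88.6 in pHep. Their part in the other results was not tested.

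Other cell types gave partial signals. Of 24 squamous genes tested, 13 rose and 2 fell (median 3.34, 2.93 at the floor). Of the falls, 0 were left without MEF_ciHep 1 and 1 without any other one of the 6 libraries compared. The list summed to 590.3, 964 and 860.4 TPM in MEF_ciHep, 29.1 to 46.1 in MEF and 8274 and 13520 in pHep. The defining basal markers Krt5 and Trp63 were at or near 0. Of 14 endothelial genes, 6 rose and 3 fell (median 2.47, 1.22 at the floor): Cdh5 rose to 126, 203 and 490.3 CPM and Pecam1 to 9.7, 37.5 and 121 CPM, whereas Kdr was not called and Eng, Emcn and Erg fell. Of 7 macrophage and blood genes tested, of 20 listed, 3 rose and 2 fell, or 1 without MEF 2, MEF 3 or MEF_ciHep 2 (median 1.51). Csf1r rose to 121, 53.8 and 166 CPM and Cd14 from 5.11, 1.8 and 4.76 to 23.4, 82.4 and 32.1 CPM. Cd68 stood at 8.82, 6.76 and 17.1 CPM against 4.81, 5.01 and 6.01 and was not called. The alpha globin Hba-a2 was called higher at 3.97, 4.15 and 0 CPM against 0, with overlapping libraries, and lost the call with DESeq2 (adjusted p = 0.225) and without MEF 1, MEF 2 or MEF 3 (edgeR adjusted p 0.0548 to 0.0647). Ptprc, Adgre1 and Tyrobp, which held up to 3.01 CPM in MEF, were at 0 in every MEF_ciHep library, and Clec4f and Hbb-bt were at 0 in both groups. Of 7 neural genes tested, 6 fell and 1 rose (median -5.24, -4.05 at the floor). The endothelial list summed to 245, 340 and 473 TPM in MEF_ciHep and 40.3 to 58.1 in MEF, and the macrophage and blood list to 122, 177 and 164 and 51.1 to 94.2; their part in the results was not tested.

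**Figure D4:**
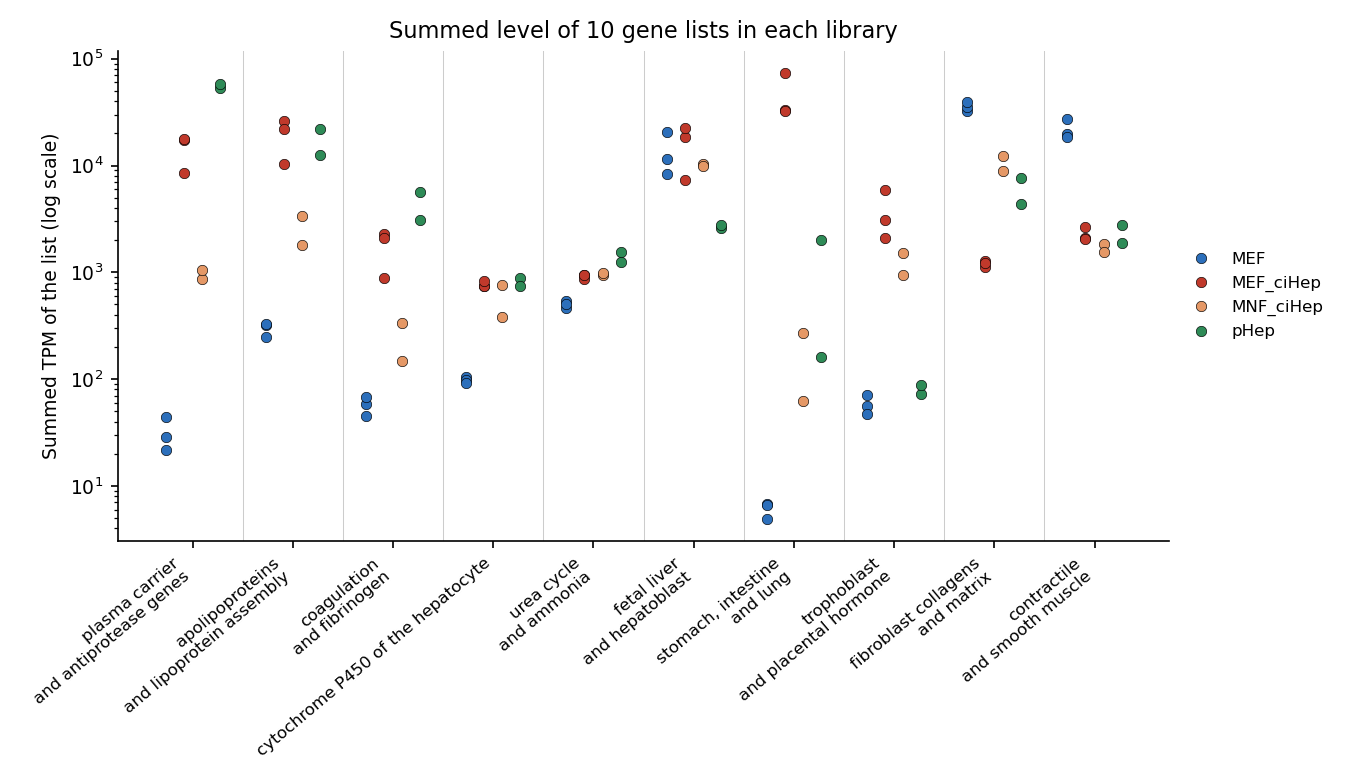
Summed TPM of 10 gene lists in each library on a log scale, with 1 point per library and colour by group (MEF, MEF_ciHep, MNF_ciHep, pHep). The stomach list reaches 32080 to 73470 TPM in MEF_ciHep against 160.1 and 2002 in pHep, and the fibroblast matrix list falls to 1128 to 1287 TPM.

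Levels differed among the 3 MEF_ciHep libraries, more in some lists than in others. Whether this came from the cells or from the handling of the libraries was not tested. Of the 3420 genes that rose, 39.6% were highest in MEF_ciHep 1, 30.5% in MEF_ciHep 2 and 29.9% in MEF_ciHep 3, and the median ratio of the highest to the lowest library was 1.70. Trophoblast genes had the largest median ratio of the 37 lists, 9.69, and 80.0% of the 15 that rose were highest in MEF_ciHep 3. For the 12 apolipoprotein genes that rose the median ratio was 2.93, with 75.0% highest in MEF_ciHep 1 and none in MEF_ciHep 2. For the 13 coagulation genes it was 3.01, and for stomach genes 2.31 with 9 of 15 highest in MEF_ciHep 1. Epithelial genes had a median ratio of 1.45. MEF_ciHep 2, the deepest library, was the lowest for Apoa1, Trf, Afp and the fibrinogen chains and the highest for Cyp3a11 and Cyp2c55, while Alb was highest in MEF_ciHep 3. The 10 most abundant genes took 15.0%, 10.1% and 10.3% of TPM in the 3 libraries, against 6.80% to 8.01% in MEF.

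**Figure D5:**
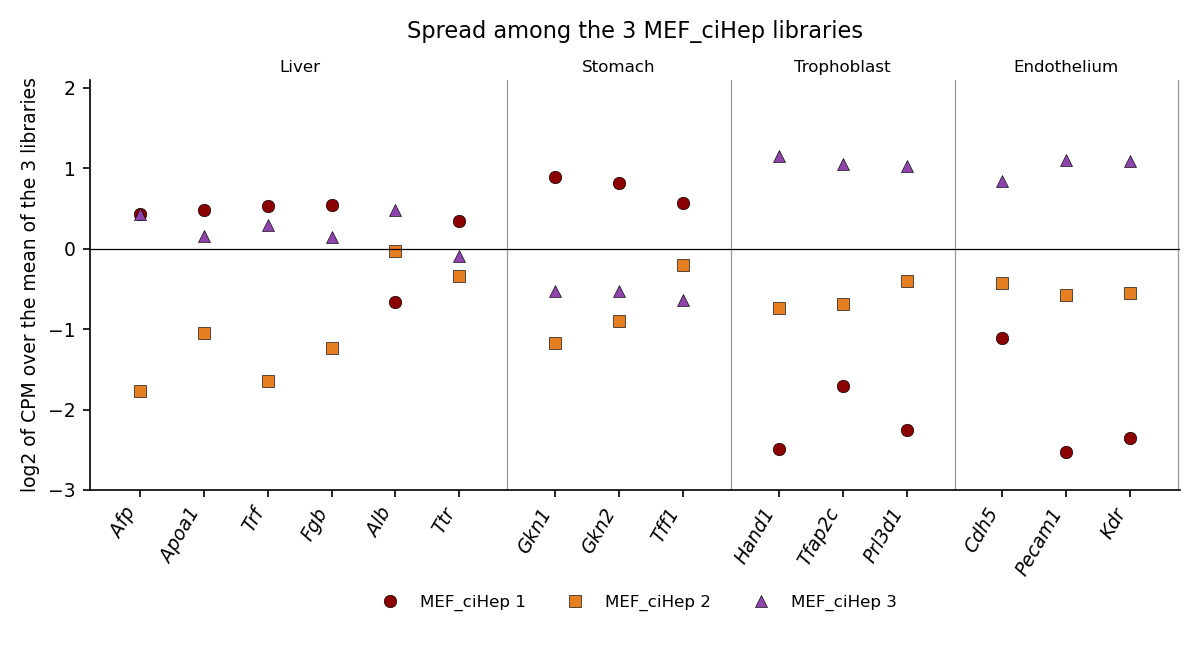
The CPM of named genes in MEF_ciHep 1, 2 and 3, each divided by the mean of the 3 libraries and shown as log2, 1 symbol per library. Prl3d1, Hand1, Tfap2c, Cdh5 and Pecam1 have MEF_ciHep 3 highest, Afp, Apoa1, Trf and Fgb have MEF_ciHep 2 lowest, and Alb and Ttr spread less.

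Against primary hepatocytes, which share the MEF_ciHep libraries with the comparison above, 2230 of the 14457 genes (15.4%) were higher in MEF_ciHep and 1602 (11.1%) lower. Lower in MEF_ciHep were 28 of 30 plasma carrier genes (median log2 difference -3.32), 12 of 17 coagulation genes, 13 of 16 complement genes and 10 of 20 hepatocyte transcription factors (median -1.31). None of these genes was higher except 1 of the transcription factors. For P450 genes the counts were 2 higher and 8 lower of 20, for fatty acid oxidation 1 and 2 of 21, and for phase II genes 5 and 8 of 23. Mup3, a major urinary protein, stood at 957 and 201 CPM in pHep and 0, 0.307 and 0 in MEF_ciHep, and Mup7 at 3088 and 3.86 CPM in pHep and 0 in MEF_ciHep, so the pHep libraries themselves differed widely. At the other end, Dmbt1, a mucosal scavenger protein, stood at 2094, 938 and 1485 CPM and Zg16, a lectin of secretory granules, at 2450, 461 and 1266 CPM in MEF_ciHep, where pHep held 0 CPM of Dmbt1 and 0 and 0.482 of Zg16.

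The change from fibroblast to ciHep differed by origin. The interaction test, (MEF_ciHep minus MEF) minus (MNF_ciHep minus MNF), called 2174 genes with a larger log2 difference in the MEF series (15.0%) and 2657 with a smaller one (18.4%). Since strain, age and tissue differ between the origins, these cannot be told apart. In the lists, 35 of 47 matrix genes, 29 of 34 mesenchymal factors and 38 of 40 replication genes had a more negative difference in the MEF series. The replication list moved in opposite directions. Its summed level was 874.5 and 960.8 TPM in MNF and 2365 and 2553 in MNF_ciHep. In the MEF series it was 3442 to 4339 TPM in MEF and 567.8 to 1023 in MEF_ciHep. Col1a1 stood at 1192 and 578 CPM in MNF_ciHep 1 and 2, against 1.32, 6.61 and 3.34 in MEF_ciHep. Trf had a log2 difference larger by 9.73 ± 1.15 (SE, adjusted p = 1.70e-04) in the MEF series, with 47.4 and 86.2 CPM in MNF_ciHep and 6.94 and 1.93 in MNF.

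For many liver genes both fibroblast groups were at or near 0, and the interaction then has no usable error, as for Hnf4a and Alb (adjusted p = 1.0). Levels are given instead. Alb stood at 0 and 0.539 CPM in MNF_ciHep, Hnf4a at 3.18 and 11.8, Apoa1 at 4.34 and 43.1 and Afp at 0.868 and 6.46, each below every MEF_ciHep library. Endoderm genes were present in both, with Sox17 at 57 and 196 and Gata4 at 165 and 587 CPM in MNF_ciHep. Gkn2 stood at 1.45 and 10.2 CPM in MNF_ciHep, and the stomach list summed to 62.3 and 272 TPM there. The plasma carrier list summed to 873 and 1059 TPM in MNF_ciHep, against 17490, 8448 and 17630 in MEF_ciHep.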

How the data were processed

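RNA-seq libraries were made from Trizol-extracted total RNA with an Illumina TruSeq kit, per the labels' protocols. Gene abundances were estimated with RSEM 1.2.4 on mm10, per the submitters' processing notes. The authors deposited RSEM expected counts of 31673 genes for all 28 libraries in one table, and tables per library of 32406 genes that hold expected counts, TPM and FPKM. The counts and the TPM were used, and the deposited FPKM values, which are scaled for length and depth, were not used here. Columns were matched to libraries by title, and 0 columns of values were without a sample. Whether counting used strand is not given in the sources used here, so genes overlapped on the opposite strand (Hnf4a by Hnf4aos, Tagln by Pcsk7, Dmbt1 by Fgfr2) and near-identical copies are uncertain.

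Expected counts were rounded to whole numbers. Genes were kept by edgeR's filterByExpr with a minimum count of 10, which left 14457. Libraries were scaled by TMM, and 12 libraries of 5 groups (MEF, MNF, MEF_ciHep, MNF_ciHep, pHep) were fitted together with edgeR 4.0.16 in R 4.3.3 by quasi-likelihood, with residual degrees of freedom of 7 and a common biological coefficient of variation of 0.262. CPM are TMM-scaled. Calls needed 2-fold or more and, after Benjamini-Hochberg adjustment over all genes, a p under 0.05. The procedure was tested on simulated data. A group at 0 was set to a floor of 3 counts over the group for fold bounds, and intervals are exact at 95%.

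Gene coordinates are GENCODE M21 (GRCm38). Of 14457 genes tested, 10701 matched the RefSeq promoter table by symbol. Named genes were those with the 12 largest rises and falls at 32 CPM or more without overlap of the libraries. They were joined by the 6 largest each way for the interaction and against pHep. Also named were 4 per list by adjusted p with up to 3 against its majority and 2 not called, the 10 highest in TPM, and markers. Another 36 were chosen after their values were seen, among them Cebpa, Hp, F2, Cdh1, Krt8, Vim, Acta2, Fn1, Mki67, Igf2 and Hand1. A few genes and one motif that these rules picked are not reported here. The members and lists were chosen with earlier results of these data known. Same-numbered libraries were checked for pairing by the correlation of their residuals, -0.0259, -0.0214 and -0.0401, and were not paired. Alternatives were RLE scaling, DESeq2 1.42.0, limma 3.58.1 on log2(TPM + 1), other filters and sample sets, an offset for effective length, a replicate block and leaving out each library.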

Additional observations from a re-analysis of the deposited data

Results flagged for a closer look

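The difference between MEF_ciHep and MEF and that between MNF_ciHep and MNF were themselves compared by the interaction test in edgeR, which called 2174 genes with a more positive and 2657 with a more negative log2 difference in the MEF series. The genes named here are among the 6 with the largest interaction in each direction. Where a group is at 0 the fitted size depends on the prior count. Origin, strain and age cannot be told apart.

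More positive in the MEF series was Vsig1, a gastric junction protein, by 13.6, with 152, 102 and 73.5 CPM in MEF_ciHep and 0 in MNF_ciHep. Iyd, a deiodinase, differed by 13, with 20.7, 88.8 and 29.4 CPM in MEF_ciHep and 0.289 and 0 in MNF_ciHep. Dhrs9, a retinol dehydrogenase, differed by 10.61, with 104, 19.4 and 99.3 CPM in MEF_ciHep, 8.12, 4.41 and 4.25 in MEF and 0 in MNF_ciHep. The antiviral genes Oas1g and Ddx60 differed by 14.87 and 10.51. Oas1g stood at 26.9, 53 and 33.1 CPM in MEF_ciHep and 0 in MNF_ciHep, and Ddx60 at 140.2, 172 and 105 CPM and 2.89 and 1.08.

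More negative were genes high in MNF_ciHep. Ibsp, a bone matrix protein, differed by -14.58, with 105 and 35.5 CPM in MNF_ciHep and 0, 0 and 0.334 in MEF_ciHep. Dio2, a thyroid hormone deiodinase, differed by -13.95, with 72.3 and 71.6 CPM in MNF_ciHep. Csn3, a milk casein, differed by -13.55, with 88.5 and 93.7 CPM, and Cldn11, a claudin, by -13.04, with 101 and 44.7 CPM in MNF_ciHep. Stmn2, a neuronal microtubule protein, differed by -13.17, with 62.2 and 16.7 CPM in MNF_ciHep, 36.1, 20.5 and 18.3 in MEF and 0, 0 and 0.334 in MEF_ciHep. Fosb, an immediate early gene, differed by -12.84, with 1995 and 1252 CPM in MNF_ciHep. In MEF it stood at 7.82, 387 and 6.76 CPM, high in MEF 2 only.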

How the results depend on the processing

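Against MEF, the 3420 higher and 2920 lower genes ranged over 2626 to 4310 higher and 2117 to 4161 lower across the alternatives, the ends being a minimum count of 50 and no minimum fold. Leaving out 1 library gave 3258 to 3383 higher and 2615 to 2864 lower, and each count stayed within 1.5 times its main value. With the replicate block, although the numbers did not pair the libraries, the counts were 3314 and 2830 against MEF, 1967 and 2439 for the interaction and 1962 and 1377 against pHep. The offset for effective length, which tracks the difference in read length, gave 3357 and 2848. Leaving out 1 library gave 1608 to 2085 higher and 1959 to 2608 lower for the interaction, and 1738 to 2111 and 1386 to 1550 against pHep. Of 325 named genes 248 were called against MEF, 229 of them in every alternative. The other 19 lost the call in at least one and 0 reversed.

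The log2 differences that changed sign all belonged to genes that were not called, apart from Tgtp2 against pHep, which ranged from -12.3 to 0 (without pHep 2) when 1 library was left out. Leaving out 1 library moved Cldn11 over -4.42 to 0 (without MEF 2), Cldn12 over -0.19 to 0.22, Krt10 over -0.56 to 0.2, Runx1 over -0.09 (without MEF 3) to 0.28 and Hspa5 over -0.34 (without MEF_ciHep 3) to 0.39. MEF_ciHep 2 set one end for Ephx1 (-0.8 to 0.99), Pros1 (-0.35 to 0.1), Sox7 (-0.04 to 0.83), Mbl2 (0 to 2.14) and Mup3 (0 to 2.96). With limma, Ephx1 stood at -0.12, Hspa5 at -0.13 and Runx1 at -0.08. Cldn12 stood at 0.01 with a minimum count of 50, Runx1 at -0.04 with the length offset and Mup7 at 0.45 with the replicate block. The cause was not tested. Depth limits genes at 0: with 2420756 to 6133147 counts a library, absence means below the count floor.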

Other observations

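A few interferon response genes, which were in none of the lists, are given here as values only, since they were chosen because of them. Ifit3, an antiviral RNA-binding protein, stood at 192, 308 and 166 CPM in MEF_ciHep and 0.902, 1.4 and 1.0 in MEF. Irf7, the factor that amplifies the interferon response, stood at 137, 221 and 148 CPM against 0.601, 2.21 and 1.0. Isg15, a ubiquitin-like modifier, stood at 86, 132 and 108 CPM against 4.21, 8.83 and 3.0, and Usp18, which removes it, at 132, 161 and 154 CPM against 1.2, 1.8 and 1.25. Ifit2 and Irf1 were not called.

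Xist, the RNA of the inactive X chromosome, stood at 1688, 1285 and 1071 CPM in MEF_ciHep and 376, 322 and 402 in MEF, a log2 difference of 1.88 ± 1.09 SE that was not called (adjusted p = 0.161). The Y-linked Ddx3y stood at 19.4, 20.3 and 14 CPM in MEF_ciHep and 51.1, 40.5 and 46.1 in MEF and was not called. All 6 mouse libraries therefore held transcripts of both kinds. The pHep libraries did not: Xist stood at 2.345 and 1461 CPM and Ddx3y at 60.2 and 0 in pHep 1 and 2. These 2 references thus differed in sex-linked transcripts, and the effect on comparisons with pHep was not tested.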
